A study of Rattus norvegicus with 5 samples.

Results

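Myocytes of the neonatal rat ventricle that had carried a TBX18 adenovirus for 3 days were compared with myocytes that had carried a GFP adenovirus, 1 culture and 1 single-cell RNA library each. A myocyte was taken to be a barcode with at least 500 detected genes in which M was more than 2 times S. M is the summed level, in CPM (the UMIs of a gene scaled to a fixed total per cell), of Tnnt2, Actc1 and Myh6, and S is that of the collagen genes Col1a1, Col1a2 and Col3a1. A UMI is the tag that marks 1 captured RNA molecule. The rule took 4840 of 8128 cells with enough genes in the GFP library and 3236 of 6489 in the TBX18 library, 8076 cells of the 38019 barcodes in the 5 libraries of the series. Because the rule reads these 6 genes, their levels in the chosen cells are a description.

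The cells were wild-type primary cells of the ventricle of Sprague dawley rats at P2 (postnatal day 2), and the labels state that non-myocytes were included. The GFP group at day 3 had received Adeno-GFP for 3 days and the TBX18 group Adeno-TBX18 for 3 days. The other groups, collected at day 14, had received the GFP virus, the TBX18 virus, or the TBX18 virus with A83-01, an inhibitor of TGF-beta receptors, whose treatment label gives 3 days where its title gives day 14. Both day 3 cultures thus carried an adenovirus, and a culture without virus was not analysed here. The number of animals pooled per culture is not given in the labels. With 1 library per group, no difference has a replicate check, no p-value is given, and all intervals, at 95%, cover counting error only.

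TBX18 is a transcription factor of the T-box family that acts in the embryonic heart during formation of the sinus node, the natural pacemaker. The title of the series names conversion of ventricular myocytes to pacemaker cells as the question addressed. Ventricular myocytes contract through sarcomeres, in which actin filaments carry the troponin complex and myosin filaments pull on them. Tnnt2 (ENSRNOG00000033734) encodes cardiac troponin T, which ties the troponin complex to the thin filament. Actc1 (ENSRNOG00000008536) encodes alpha-cardiac actin, the building block of that filament, and Myh6 (ENSRNOG00000025757) encodes alpha-myosin heavy chain, the motor of the thick filament. Col1a1 (ENSRNOG00000003897), Col1a2 (ENSRNOG00000011292) and Col3a1 (ENSRNOG00000003357) encode chains of fibrillar collagen, which fibroblasts make in quantity.

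The GFP library held 202024192 UMIs in 8859 barcodes and the TBX18 library 195883808 UMIs in 6781 barcodes. The libraries shared 15 barcodes, 6 of them in cells that met the rule in both. Myocyte-rule cells had a median of 22329.5 UMIs and 3606 genes with GFP and of 29999 UMIs and 4167 genes with TBX18. The TBX18 cells thus held more UMIs each, and the part of reading depth in this was not tested. When each cell was thinned to 5000 UMIs, the median was 1547 genes with GFP and 1531 with TBX18, and the gap in genes per cell was no longer seen. The 10 most abundant genes took 24.1% of myocyte-rule UMIs with GFP and 24.0% with TBX18.

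Tnnt2, Actc1 and Myh6 are the only markers of the label that could be checked, and the rule itself reads their sum. All 3 myocyte genes had a UMI in 4718 of the 4840 GFP cells and in 3132 of the 3236 TBX18 cells. Further markers of myocytes and markers of other cell types could not be read, because the tables give Ensembl IDs and no gene symbols. The rule also took a minority of cells with little M. M lay under 5000 CPM in 170 of the GFP cells, 3.51% (exact Clopper-Pearson interval 3.01 to 4.07), and in 417 of the TBX18 cells, 12.9% (11.8 to 14.1). The mark of 5000 CPM was set after the values were seen, and 8 GFP cells and 112 TBX18 cells lay between 4000 and 6000 CPM. The low cells had a median of 16287 UMIs with GFP and 20565 with TBX18, fewer than the 22583.5 and 30592 UMIs of the other myocyte-rule cells. In cells with S above 2 times M, the 95th percentile of M was 1304 CPM with GFP and 1893 CPM with TBX18. At or under it lay 153 GFP (3.16%) and 224 TBX18 (6.92%) myocyte-rule cells. Their M does not tell them from the cells with S above 2 times M.

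Myocyte-rule cells made up 59.5% of GFP cells (58.5 to 60.6) and 49.9% of TBX18 cells (48.6 to 51.1). Cells with S above 2 times M made up 35.9% and 45.0%, and cells that met neither condition 4.53% and 5.10%. A share does not tell fewer cells of one kind from more of another, or from cells whose M crossed the rule. Median M was 22591 CPM in GFP myocyte-rule cells and 26638 CPM in TBX18 cells, against 353 and 465 CPM in the cells with S above 2 times M. The spread of M was wider with TBX18, where the 5th percentile was 1144 CPM and the 95th 41018 CPM, than with GFP, where they were 10189.8 and 33012 CPM. Just inside the rule, where M was 2 to 4 times S, lay 99 GFP cells with a median M of 309 CPM and 186 TBX18 cells with a median of 1846 CPM. Just outside it, where M was 1 to 2 times S, lay 179 GFP cells with a median M of 8452 CPM and 216 TBX18 cells with a median of 8637 CPM.

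**Figure D1:**
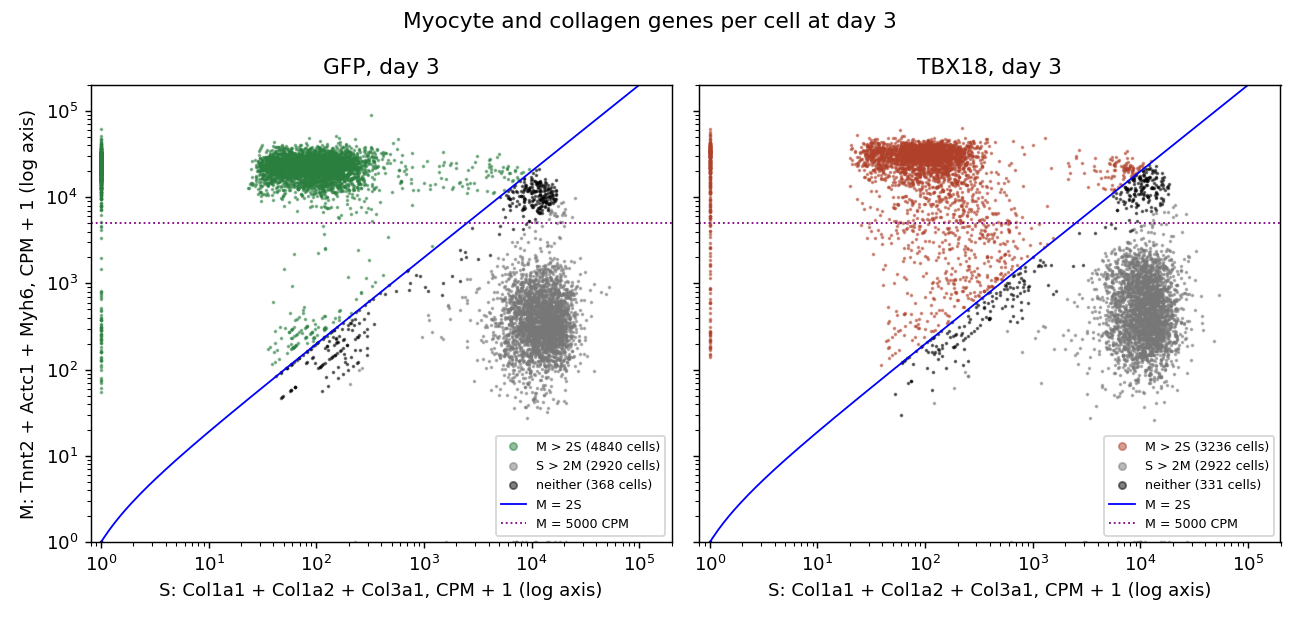
Each point is 1 cell with at least 500 genes; the x axis is S and the y axis M, both as CPM + 1 on log axes, for the GFP library (left) and the TBX18 library (right). The line marks M = 2S and the dotted line 5000 CPM; below the dotted line the rule took 170 GFP cells and 417 TBX18 cells.

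The 3 sarcomere genes differed between the libraries in unlike directions. Actc1 stood at 5215 CPM with GFP (5201 to 5228) and at 12665 CPM with TBX18 (12642 to 12687), 2.43-fold higher with TBX18. Tnnt2 stood at 10117 CPM with GFP (10098 to 10136) and at 6066 CPM with TBX18 (6051 to 6082), 1.67-fold lower with TBX18. Myh6 stood at 6510.3 CPM with GFP and 6040.3 CPM with TBX18, 1.08-fold lower with TBX18. On the log2 scale the ratios of TBX18 over GFP were 1.28 for Actc1, -0.74 for Tnnt2 and -0.11 for Myh6. Scaling by median of ratios gave 1.27, -0.75 and -0.12, and the directions did not change. Among the cells with M of at least 5000 CPM, Actc1 had a log2 ratio of 1.39, Tnnt2 of -0.66 and Myh6 of -0.01.

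The promoters of Tnnt2 and Actc1, which of the 3 sarcomere genes lay farthest apart, are shown for their letters around the start site. Each window runs from 250 bases before to 50 bases after the start of the gene in RefSeq, assembly GRCr8, a build other than the one in the submitters' processing notes, and is written in the direction of transcription. Tnnt2 has the window chr13:49818873-49819172 on the + strand for the first of its starts in the table, and Actc1 chr3:121271778-121272077 on the - strand. Capitals mark a CArG box, the motif bound by serum response factor, a regulator of sarcomere genes.
Tnnt2: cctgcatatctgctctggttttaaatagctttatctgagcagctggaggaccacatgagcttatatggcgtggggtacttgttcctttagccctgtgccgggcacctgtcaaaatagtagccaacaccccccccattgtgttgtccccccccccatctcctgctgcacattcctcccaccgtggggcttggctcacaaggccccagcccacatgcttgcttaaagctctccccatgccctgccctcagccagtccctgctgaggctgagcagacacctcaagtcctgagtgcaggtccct
Actc1: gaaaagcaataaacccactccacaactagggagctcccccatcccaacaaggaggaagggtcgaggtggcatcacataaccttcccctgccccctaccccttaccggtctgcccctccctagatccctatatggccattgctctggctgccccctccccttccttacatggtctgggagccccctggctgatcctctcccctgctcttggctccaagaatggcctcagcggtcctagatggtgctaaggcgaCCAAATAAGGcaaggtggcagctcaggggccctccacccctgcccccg
The Actc1 window held 1 CArG box, which lies after the start site, and the Tnnt2 window 0. Of all 33469 windows in the table, 1.64% held one. The windows of another Tnnt2 start, of Myh6 and of Col1a2 held none. The search for this box was not part of the plan. The T-box motif AGGTGTGA, searched on both strands, was in neither window and in 1.10% of all windows. Its shorter core GGTGTG, which is contained in the longer motif, was also in neither and in 17.9% of all windows. It was found once in the window of another Tnnt2 start, chr13:49823809-49824108. The windows of Myh6 and Col1a2 held neither form. These matches describe letters in 300 bases and say nothing of binding.

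Cell by cell, the libraries differed over most of the range of Tnnt2, and Actc1 was spread more widely with TBX18. The median cell held 4808 CPM of Actc1 with GFP, with quartiles of 3470.5 and 6611 CPM, and 13618 CPM with TBX18, with quartiles of 5432 and 18121 CPM. Of the TBX18 cells, 1993 (61.6%) lay above the 95th percentile of the GFP cells for Actc1, which was 10641 CPM, and 583 (18.0%) lay below their 5th percentile, which was 1533 CPM. TBX18 cells were thus found on both sides of the GFP range for this gene. The low side takes in cells with M under 5000 CPM, and M sums this gene. Those 417 TBX18 cells had a median of 172 CPM of Actc1 and a 95th percentile of 1126 CPM. For Tnnt2 the median cell held 10373 CPM with GFP and 6174 CPM with TBX18. Of the TBX18 cells, 751 (23.2%) lay below the 5th percentile of GFP cells for Tnnt2 and 13 (0.402%) above the 95th. For Myh6 the medians were 6514 CPM and 5980.1 CPM. For this gene 358 TBX18 cells (11.1%) lay below the 5th percentile of GFP cells and 115 (3.55%) above the 95th. The low-M cells are in all of these counts. Among cells with M of at least 5000 CPM, the 5th percentile of Actc1 was 2214 CPM with GFP and 1049 CPM with TBX18. That of Tnnt2 was 6138 and 2596 CPM, and that of Myh6 1758 and 1546 CPM.

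**Figure D2:**
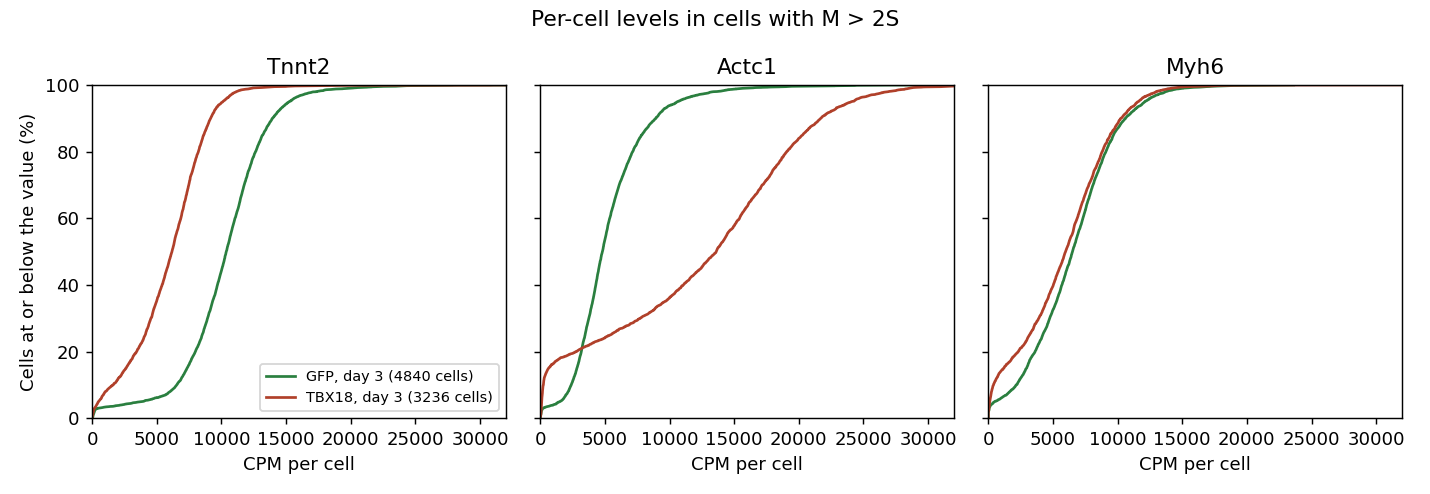
Each curve gives the share of myocyte-rule cells (y axis, %) whose level of the gene is at or below the CPM on the x axis, for 4840 GFP cells and 3236 TBX18 cells. The TBX18 curve lies to the left for Tnnt2, crosses the GFP curve for Actc1 and lies close to it for Myh6.

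The mix of the 3 genes within a cell also differed between the libraries. Among cells with M of at least 5000 CPM, 4670 with GFP and 2819 with TBX18, Actc1 made up a median of 22.6% of M with GFP and 51.5% with TBX18. Actc1 exceeded 40% of M in 176 GFP cells (3.77%) and in 2248 TBX18 cells (79.7%). Tnnt2 made up 46.5% of M with GFP and 23.8% with TBX18, and Myh6 29.8% and 24.4%. The most abundant of the 3 in the median cell was therefore Tnnt2 with GFP and Actc1 with TBX18. At day 14 the median share of Actc1 was 31.2% with GFP and 30.0% with TBX18.

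The virus transcripts checked the labels. EGFP, carried by the control virus, stood at 92.8 CPM in GFP myocyte-rule cells (91.0 to 94.6), and a single EGFP UMI was found in the TBX18 cells. ZsGFP, a green reporter listed in the tables, stood at 54.0 CPM and the human transgene hTBX18 at 22.1 CPM (21.2 to 23.1) in the TBX18 cells. Both had 0 UMIs in the GFP cells, where 3 counts would be 0.0274 CPM. Against that level they were 1973-fold and 808-fold higher in the TBX18 library. The exact intervals of their log2 ratios had lower ends of 10.6 and 9.36. The rat Tbx18 gene was not analysed here.

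Virus RNA was detected in a minority of cells at equal depth. After thinning to 5000 UMIs, which left out 138 GFP and 93 TBX18 cells, 24.6% of GFP cells (23.4 to 25.9) had an EGFP UMI. In the TBX18 library 12.4% (11.3 to 13.6) had a ZsGFP UMI and 8.27% (7.33 to 9.29) an hTBX18 UMI. Without thinning the shares were 52.6%, 32.2% and 28.3%, so they moved strongly with depth, and a cell without a UMI is not shown to lack the virus. The cells with S above 2 times M, at medians of 24536 UMIs with GFP and 28103 with TBX18, held 7.18 CPM of EGFP, 7.52 CPM of ZsGFP and 2.27 CPM of hTBX18. Their thinned shares were 2.17%, 1.69% and 0.965%, below those of the myocyte-rule cells for each feature. Of the cells with 4 or more virus UMIs among 10000, 258 of 271 in the GFP library (95.2%) and 161 of 196 in the TBX18 library (82.1%) met the myocyte rule.

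Within the TBX18 library, the levels of Actc1 and Tnnt2 were lower in each class richer in virus RNA, and Myh6 was lower in the classes with 2 or more virus UMIs but not in the class with 1. In the GFP library the levels of the same genes spanned a narrower range. All of these cells had met the rule, which reads the same genes, so the levels are a description. Cells with at least 10000 UMIs were thinned to that number and divided by the UMIs of their own virus (EGFP, or ZsGFP with hTBX18), and levels were then read from all of their UMIs. For Actc1 in the TBX18 library, 2263 cells with 0 virus UMIs among the 10000 stood at 14009 CPM. The level was 11754 CPM in 409 cells with 1 and 7419 CPM in 182 cells with 2 to 3. In 161 cells with 4 or more it was 2748 CPM. The class with 0 is not free of virus RNA, since all of its UMIs held 427 of hTBX18 (6.10 CPM). For Actc1 in the GFP library, the levels were 5277, 5249, 5185 and 4626 CPM in 2787, 915, 548 and 258 cells. The summed level of Actc1 in the TBX18 library was thus above that of GFP in the first 3 classes and below it in the class with most virus RNA. In the class with 2 to 3 virus UMIs the median cells were close, at 4814 CPM with TBX18 and 4636 CPM with GFP, and the TBX18 cells had quartiles of 189 and 13911 CPM, against 3503 and 6168 CPM with GFP. The higher sum of that class therefore came from some of its cells, while others lay far under the GFP cells.

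Tnnt2 in the TBX18 library stood at 6385, 5931, 4831 and 3558 CPM over these classes, from least to most virus RNA, against 10082, 10269.7, 10141 and 10205 CPM in the GFP library. Myh6 stood at 6379.5, 6507, 4630.4 and 2158 CPM with TBX18 and at 6499, 6888, 6398 and 5877 CPM with GFP. Cells with M under 5000 CPM made up 6.98%, 10.3%, 28.0% and 60.2% of the TBX18 classes (exact interval for the last 52.2 to 67.9) and 5.02%, 0.109%, 0% and 1.16% of the GFP classes. For the 0 of 548 GFP cells the exact interval reaches 0.671%. The classes differ in depth, with median UMIs of 30529, 30552, 33581 and 27839 with TBX18 and of 21922, 23964, 25738 and 27133 with GFP. The cells of a library come from 1 culture, so that the classes are not replicates, and the part of depth in these values was not tested. Of all cells with 4 or more virus UMIs, the rule kept 82.1% with TBX18 and 95.2% with GFP, so that it chose unequally. The classes count EGFP alone with GFP but ZsGFP and hTBX18 together with TBX18. Equal counts are therefore not equal amounts of virus.

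**Figure D3:**
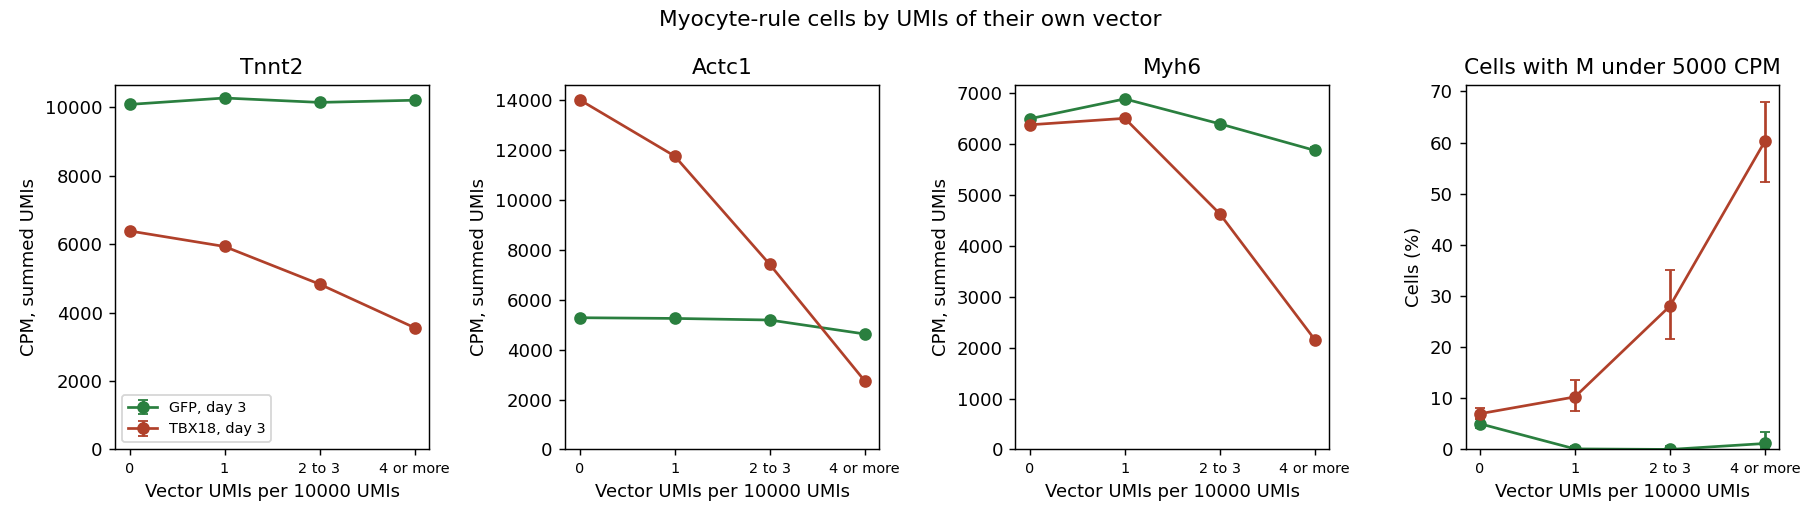
Levels of Tnnt2, Actc1 and Myh6 (CPM of summed UMIs) and the share of cells with M under 5000 CPM (%) are plotted against the number of UMIs of the cell's own virus among 10000, for myocyte-rule cells of both libraries; bars are exact 95% counting intervals. TBX18 values go from 14009 to 2748 CPM for Actc1, while GFP values stay between 4626 and 5277 CPM.

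The low-M cells of the libraries also differed in virus RNA. In the TBX18 library they held 268 CPM of ZsGFP and 81.1 CPM of hTBX18, against 31.3 and 15.9 CPM in cells with M of at least 5000 CPM. In the GFP library they held 21.3 CPM of EGFP against 94.7 CPM, and 6 of 170 (3.53%) had an EGFP UMI. In these low cells Tnnt2 stood at 224 CPM with GFP and 1492 CPM with TBX18, Myh6 at 134 and 551 CPM, and Actc1 at 125 and 219 CPM. The low cells are therefore not alike in the libraries, and no fold change is drawn between them.

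The collagen genes were higher in TBX18 myocyte-rule cells, at levels far under those of the cells with S above 2 times M. Col1a1 stood at 60.8 CPM with GFP and 192 CPM with TBX18, a log2 ratio of 1.66 (1.62 to 1.70). Col1a2 stood at 45.0 and 134 CPM, a log2 ratio of 1.57, and Col3a1 at 63.5 and 124 CPM, a log2 ratio of 0.97. Cells near the rule carried a large share of these UMIs, in part because that group is set by a low ratio of M to S. Cells in which M was at most 10 times S, 338 with TBX18 (10.4%) and 156 with GFP (3.22%), held 77.6% and 48.2% of the collagen UMIs of the myocyte-rule cells. Their median M was 1970 CPM with TBX18 and 409 CPM with GFP, and their median S 438 and 121 CPM. M was at least 5000 CPM in 109 of them with TBX18 and in 56 with GFP. In the cells with M above 10 times S the log2 ratios were 0.68 for Col1a1, 0.26 for Col1a2 and -0.03 for Col3a1. With the top 6% of doublet scores (Scrublet, computed in each library) left out they were 0.80, 0.19 and 0.02. For Col3a1 the direction thus turned with M above 10 times S. That cut reads the collagen genes themselves, so the ratios left under it are a description. The median cell held 76.5 CPM of S with GFP and 101 CPM with TBX18, and 946 GFP cells (19.5%) and 307 TBX18 cells (9.49%) had no collagen UMI at all. The part of depth in these shares was not tested.

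Of all features, 7899 averaged 5 CPM or more over the libraries, the 3 virus features included. With a pseudocount of 0.5 CPM, 391 (4.95%) were at least 2-fold higher with TBX18 and 351 (4.44%) at least 2-fold lower. Among the cells with M of at least 5000 CPM, 391 of 7816 (5%) were higher and 341 (4.36%) lower. Of the genes the rule reads, Actc1, Col1a1 and Col1a2 were past 2-fold, and Tnnt2, Myh6 and Col3a1 were not. Nothing is read from this count, since the rule chose the cells by these genes, and Col1a1 and Col1a2 were under 2-fold with M above 10 times S (0.68 and 0.26) and without the top doublet scores (0.80 and 0.19). At least 4-fold differences were found for 93 features with higher and 42 with lower values in the TBX18 library, and at least 8-fold ones for 30 and 14. The log2 ratios had a standard deviation (SD) of 0.67 over genes, a 5th percentile of -0.95 and a 95th of 0.99, with quartiles of -0.35 and 0.25. Moving 12.1% of the UMIs to other genes would turn the GFP profile into that of TBX18.

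The calls were spread over all levels of expression. Among 146 genes that averaged 1000 CPM or more, 8 (5.48%) were at least 2-fold higher and 2 (1.37%) at least 2-fold lower. Among 1036 genes from 100 to 1000 CPM, 57 were higher and 30 lower. Among 2966 genes from 20 to 100 CPM, 118 were higher and 144 lower, and among 3751 genes from 5 to 20 CPM, 208 were higher and 175 lower. These counts describe 1 library against 1 library, and the difference between level classes was not tested.

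**Figure D4:**
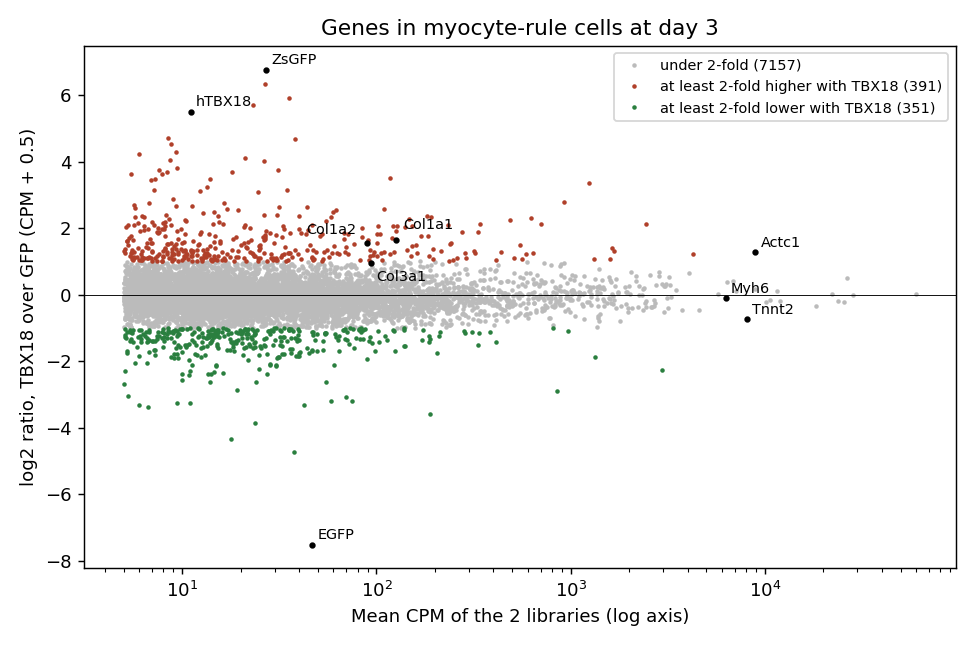
Each point is 1 feature in myocyte-rule cells at day 3; the x axis is its mean CPM over both libraries (log axis) and the y axis the log2 ratio of TBX18 over GFP with 0.5 CPM added. Of 7899 features, 391 lie at or above 2-fold higher and 351 at or below 2-fold lower; the black points are the named genes and virus features.

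In the cells with S above 2 times M of the same cultures, the libraries lay closer together. Of 8085 features there, 90 (1.11%) were at least 2-fold higher and 78 (0.965%) at least 2-fold lower with TBX18, and the SD of the log2 ratios was 0.35. The quartiles of the log2 ratios were -0.23 and 0.06. Scaling by median of ratios moved the log2 ratios in these cells by 0.08 and gave 103 higher and 47 lower. The summed depth was similar, at 76579233 and 88218828 UMIs, against 109579914 and 94507556 UMIs in the myocyte-rule cells. In these cells Actc1 stood at 75.1 CPM with GFP and 120.3 CPM with TBX18 and Tnnt2 at 394 and 504 CPM, log2 ratios of 0.68 and 0.35. Myh6 went the other way, at 80.1 CPM with GFP and 68.9 CPM with TBX18, a log2 ratio of -0.22. Free RNA from myocytes can give such UMIs, and its part was not tested. Col1a1 had a log2 ratio of -0.15, Col1a2 of -0.02 and Col3a1 of -0.38. The same scaling turned Col1a2 to 0.06.

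Among the genes whose names the files do not give, the pair ranked highest and the pair ranked lowest by the inner end of the counting interval are described by ID. They were chosen by this contrast, so their ratios are a description. The ratios have no pseudocount, and with 5 CPM added they were 3.49 for ENSRNOG00000058006, 3.24 for ENSRNOG00000018681, -3.43 for ENSRNOG00000040201 and -2.67 for ENSRNOG00000011754, in the same directions. ENSRNOG00000058006 had 17 UMIs (0.155 CPM) in GFP cells and 4999 UMIs (52.9 CPM) in TBX18 cells, a log2 ratio of 8.41 (7.73 to 9.19). Its UMIs were found in 14 of the GFP cells (0.289%) and in 654 of the TBX18 cells (20.2%), and a cell without a UMI is not shown to lack the gene. After thinning to 5000 UMIs the shares were 0.0851% and 11.3%. Over the classes of virus RNA it stood at 28.2, 47.9, 163 and 289 CPM in the TBX18 library, and in the low-M cells of that library at 317 CPM. Without the low-M cells its log2 ratio was 7.37. In the cells with S above 2 times M its levels were 5.56 and 9.48 CPM, a log2 ratio of 0.77.

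ENSRNOG00000018681 stood at 0.392 CPM with GFP and 45.8 CPM with TBX18, a log2 ratio of 6.87 (6.43 to 7.34). It was found in 27 GFP cells (0.558%) and 1453 TBX18 cells (44.9%), and after thinning in 0.106% and 16.2%. Its level over the classes of virus RNA was 40.5, 50.6, 75.4 and 79.9 CPM in the TBX18 library. The class with 0 virus UMIs of the TBX18 library therefore already stood far above the GFP library. In the cells with S above 2 times M its log2 ratio was 1.96.

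ENSRNOG00000040201 stood at 72.8 CPM with GFP and 2.23 CPM with TBX18, a log2 ratio of -5.03 (-5.23 to -4.83). It was found in 2996 GFP cells (61.9%) and 191 TBX18 cells (5.90%), and after thinning in 28.2% and 1.27%. Its level in the TBX18 library was 2.20, 2.50, 2.18 and 2.02 CPM over the classes of virus RNA, nearly level, and 74.0, 74.5, 67.9 and 70.5 CPM in the GFP library. ENSRNOG00000011754 stood at 34.5 CPM with GFP and 1.22 CPM with TBX18, a log2 ratio of -4.83 (-5.11 to -4.56). It was found in 1824 GFP cells (37.7%) and 77 TBX18 cells (2.38%), and after thinning in 13.6% and 0.700%. Over the classes of virus RNA it stood at 1.58, 0.235, 0.168 and 0 CPM in the TBX18 library, from 111, 3, 1 and 0 UMIs. In the GFP library it stood at 37.1, 33.3, 31.7 and 24.4 CPM. In the cells with S above 2 times M it had 14 UMIs with GFP and 0 with TBX18, and ENSRNOG00000040201 had 124 and 28.

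At day 14 the same rule took 1782 of 6424 GFP cells (27.7%) and 1087 of 8337 TBX18 cells (13.0%). The day 14 tables differ from those of day 3 in unit and cell filter, so that levels are compared within a day. Scaling by median of ratios moved all log2 ratios of this day by -0.26, and both values are given. By totals, 506 of 8602 features (5.88%) were at least 2-fold higher and 108 (1.26%) at least 2-fold lower with TBX18, and by median of ratios 317 and 170. Actc1 stood at 10403 CPM with GFP and 9917 CPM with TBX18, a log2 ratio of -0.07 by library totals and -0.32 by median of ratios. Tnnt2 stood at 11561 and 12911 CPM, log2 ratios of 0.16 and -0.10, so that its direction turned with the scaling. Myh6 stood at 12049 and 10255 CPM, log2 ratios of -0.23 and -0.49. The ratio of Actc1 was thus past 2-fold at day 3 and under it at day 14 by both scalings, and this change between days has no test.

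The IDs with the widest gaps at day 3 were closer together at day 14. They were chosen as extremes of day 3, so that smaller gaps on another day are not read as a result. ENSRNOG00000058006 stood at 0.788 CPM with GFP and 2.33 CPM with TBX18, from only 21 and 41 UMIs. ENSRNOG00000018681 stood at 16.4 and 28.7 CPM, and ENSRNOG00000040201 at 18.9 and 22.0 CPM. ENSRNOG00000011754 was again lower with TBX18, at 142 CPM with GFP and 53.8 CPM with TBX18, a log2 ratio of -1.40 by totals and -1.65 by median of ratios. ZsGFP stood at 8.19 CPM and hTBX18 at 9.10 CPM in the TBX18 library at day 14, and EGFP at 162 CPM in the GFP library.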

How the data were processed

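Single-cell RNA was measured with a Chromium Next GEM 3' kit, per the labels' protocols. The submitters' processing notes name STAR 2.7.8a, Partek and the build Rnor_6.0, without order or role. The day 3 tables were deposited as estimated counts of UMIs per cell, judging from the values, of which 99.72% (GFP) and 99.74% (TBX18) were whole within 0.05. Those of day 14 hold deposited log2 values, log2 of CPM plus 1 per cell, and UMIs were recovered from the most common nonzero value of each cell. The authors' filters are not given in the sources used here.

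UMIs of a library's chosen cells were added up, divided by library totals and compared as log2 ratios, with 0.5 CPM added in the contrast over all features and nothing added for single genes. Called means at least 2-fold. Intervals are exact (Poisson, Clopper-Pearson, or the ratio given the total) and cover counting error only. The log2 ratio was tested on simulated sums that held counting error only, so that differences between cells or cultures were not covered. Python 3.11.15, numpy 2.4.6, scipy 1.17.1, scanpy 1.11.5 (Scrublet) and edgeR 4.0.16 (TMM factors only) were used. Doublets were kept, as in the rule. Scrublet's automatic mark found 0.111% of GFP cells, too few to have worked, and 3.79% of TBX18 cells.

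Members and lists were chosen with earlier results of these data known. Named are the genes of the rule, the virus features and, by the inner end of their counting interval, the extreme IDs. That rule asked for symbols, but 0 of 15240 Ensembl IDs were found in the gene table of GRCr8. The 28 planned gene lists and the markers of other cell types were therefore not run, and the 6 names come from the rule itself. Alternatives were other scalings, pseudocounts, filters, cell rules and thinning depths.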

Additional observations from a re-analysis of the deposited data

Results flagged for a closer look

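Several log2 ratios of TBX18 over GFP had opposite signs in a pair of settings of the same contrast. With 1 library per group the differences were not tested, and all ratios are by library totals. Tnnt2 had -0.74 in myocyte-rule cells at day 3, 0.35 in the cells with S above 2 times M at day 3 and 0.16 in myocyte-rule cells at day 14, the last of which turned to -0.10 under scaling by median of ratios. Actc1 had 1.28 in myocyte-rule cells at day 3 and -0.069 at day 14. In myocyte-rule cells at day 3 against the cells with S above 2 times M, Col1a1 had 1.66 against -0.15. Col1a2 had 1.57 against -0.024 and Col3a1 0.97 against -0.38. Both sets of cells are cut by M and S, which sum these genes and Tnnt2, so these contrasts are a description. With M above 10 times S, Col1a1 had 0.68 and Col1a2 0.26 in the myocyte-rule cells. The opposition of Col1a2 ended under scaling by median of ratios, where the cells with S above 2 times M had 0.06, and that of Col3a1 ended with M above 10 times S, where the myocyte-rule cells had -0.031. The gene ENSRNOG00000040201 had -5.03 in myocyte-rule cells at day 3 and 0.22 at day 14, which turned to -0.04 under scaling by median of ratios.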

How the results depend on the processing

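Each library is the only one of its group, so no library could be left out. No paired analysis was possible because no group had more than 1 library. With a pseudocount of 5 CPM, 241 features were at least 2-fold higher and 200 at least 2-fold lower, with an SD of 0.51. Restricted to features averaging 20 CPM or more, the counts were 183 and 176, which fewer features tested (4148) brings with it, and without a filter 914 were higher and 497 lower among 15213. The share of cells that met the myocyte rule was 58.4% with GFP and 48.3% with TBX18 among cells with at least 2000 genes, 57.6% and 44.7% with M above 10 times S, and 60.7% with GFP without a filter on genes. Thinned to 10000 UMIs, 38.2% of cells had an EGFP UMI, 18.1% a ZsGFP UMI and 14.0% an hTBX18 UMI, the greater depth being the alternative itself. The motif GGTGTG was in 17.9% of windows, where AGGTGTGA was in 1.10%. The log2 ratio of Col3a1 reversed to -0.031 with M above 10 times S, and the cause was not tested. Of the other values of single genes, 96 kept their size within 1.5-fold and 13 moved with no change of direction, namely Col1a1, Col1a2, Col3a1 and the 4 IDs. ENSRNOG00000058006 ranged from 3.49 to 8.74, ENSRNOG00000018681 from 3.24 to 7.25, ENSRNOG00000040201 from -5.05 to -3.43 and ENSRNOG00000011754 from -4.83 to -2.67. Actc1 ranged from 1.20 to 1.44, Tnnt2 from -0.80 to -0.64 and Myh6 from -0.16 to -0.01 over 11 alternatives each. Of these, the mark at 5000 CPM of M and the cells with 0 virus UMIs were chosen after seeing the data. The latter had none among all of their UMIs, 2293 cells with GFP and 1852 with TBX18, and are not the class with 0 among 10000. The gene lists could not be run under any alternative, since no ID had a symbol.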

Other observations

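The library that received the TBX18 virus with A83-01, labelled day 14 in its title, had 2455 of 7618 cells that met the myocyte rule (32.2%). In them Actc1 stood at 12566 CPM, Tnnt2 at 10768 CPM and Myh6 at 11703 CPM (11702.5). The TBX18 library of day 14 had 9917, 12911 and 10255 CPM of the same genes. hTBX18 stood at 6.94 CPM with A83-01 and at 9.10 CPM without it. ENSRNOG00000011754 stood at 136 CPM with A83-01, at 53.8 CPM with TBX18 alone and at 142 CPM with GFP.

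Cells at day 3 that met neither condition of the rule, 368 with GFP and 331 with TBX18, held 48.4 CPM of EGFP in the GFP library, and 52.8 CPM of ZsGFP and 18.1 CPM of hTBX18 in the TBX18 library. In the TBX18 library these values lay near those of the myocyte-rule cells, 54.0 and 22.1 CPM. In the GFP library EGFP was lower than the 92.8 CPM of the myocyte-rule cells.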
